A study of Mus musculus with 8 samples.

Results

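Shroom2, Limch1, Mmp28, Abi3bp, Ripply3, Aff2, Dnm3os and Mir133a-1hg are 8 of the 19909 genes measured in haematopoietic stem cells (HSCs) of GFP-LC3 mice. Their mean level was highest in the old HSCs with high autophagy. They were chosen by their symbols from the authors' deposited table of AThi against ATlo. In that table they are 8 of the 10 largest rises among named genes called at an adjusted p below 0.05, if genes with a base mean (the average normalized count over all libraries) under 100 are left out. The other two were Thbs1 and Ppargc1a. Just inside this selection stood Aff2 with a log2 fold change of 2.56 and a base mean of 106, and just outside it stood Plekhg1 with 2.56 and a base mean of 564. Because the contrast chose the genes, their AThi and ATlo levels are descriptions, and calls of the 8 in this contrast show only how the choice depends on the test and the libraries.

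Bone marrow HSCs were taken at steady state from mice of the genotype Gfplc3/Gfplc3, which the old and the young animals shared. AThi libraries came from the 33% of HSCs with the lowest GFP signal in 3 mice older than 24 months, and ATlo libraries from the 33% with the highest GFP signal in the same old mice. Young libraries came from unfractionated HSCs of 2 mice aged 8 to 12 weeks, so the old fractions differ from the young samples in sorting as well as in age. The AThi and ATlo columns carry the tags O10, O11 and O12, and the young columns D11 and D12.

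HSCs sit at the top of blood formation and keep their number through long quiescence. Autophagy delivers cytoplasm, mitochondria included, to the lysosome. LC3 is built into the autophagosome membrane, and GFP fused to it is quenched and degraded as autophagosomes reach lysosomes, so a low GFP signal marks cells with more autophagic flux. The 8 genes do not belong to 1 pathway. Shroom2 and Limch1 act on actin and myosin, Mmp28 and Abi3bp work in the extracellular matrix, Ripply3 and Aff2 act in the nucleus on transcription, and Dnm3os and Mir133a-1hg are long non-coding RNAs that carry microRNAs.

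Depth ranged from 33960216 to 45830216 reads in AThi libraries and from 54512285 to 61341946 in ATlo libraries, with 45590508 and 44021141 in the young libraries. Mitochondrial and 18S ribosomal RNA genes took 27.1% to 36.1% of these reads. The 3 libraries tagged 12 stood apart from the others. Ighm, the heavy chain of immunoglobulin M, had 20936 normalized counts in AThi O12, 7314 in ATlo O12 and 8395 in young D12, against at most 63.5 in the other libraries. Xist, the RNA of the inactive X chromosome, had 5810, 2747 and 3869 normalized counts in the same 3 libraries, at most 171 in the other old libraries and 97743 in young D11. Kdm5d, a gene of the Y chromosome, had 0 reads in young D11 alone. HSC markers were present in all libraries, with 18 of 18 in the table and a summed level of 167953 to 191795 normalized counts in AThi, 126766 to 150408 in ATlo and 159097 to 163452 in young libraries. In AThi against ATlo, the authors' deposited table called 4 of the 18 HSC markers higher and none lower, beside 3.47% of all genes called higher and 4.43% lower, and edgeR's quasi-likelihood test called 2. Among them was Procr, the endothelial protein C receptor of HSCs (log2 fold change 0.95 in the authors' deposited table, SE 0.18, adjusted p = 1.02e-05). Mki67, a marker of cycling cells, had 14140, 14501 and 20394 normalized counts in AThi against 40270, 42789 and 47738 in ATlo, and fell by 1.42 on the log2 scale of the authors' deposited table (SE 0.17, adjusted p = 2.14e-13; edgeR's adjusted p = 0.00744). Klrb1c, a receptor of NK cells (1.33), and the platelet genes Itgb3 (0.70) and Selp (0.54) were also called higher in the authors' deposited table. EdgeR did not call them without a replicate block for the shared tag, and with the block it did not call Selp (adjusted p = 0.0599). Mki67 was the 1 gene called of 7 multipotent progenitor markers tested, whose median log2 fold change was 0.30. Klrb1c was 1 of 4 T and NK cell markers tested. Of 14 platelet markers tested, 2 were called higher and none lower, with a median log2 fold change of -0.02. Itga2b, another of the 14, had -0.67 in the authors' deposited table (SE 0.24, adjusted p = 0.0535), and DESeq2 with the block called it lower (adjusted p = 0.000621). The part of these differences in the levels of the 8 genes was not tested. In bulk samples, fewer cells that express a gene and less RNA per cell cannot be told apart.

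Shroom2 is an actin-binding protein of the SHROOM family. It lies on chromosome X, positions 152609509 to 152769465 of GRCm38, on the minus strand. AThi libraries O10, O11 and O12 held 111, 126 and 398 normalized counts (76, 114 and 380 reads), against 29.1, 17.5 and 20.2 in the ATlo libraries of the same tags (37, 22 and 26 reads), and young D11 and D12 held 47.8 and 128. Every AThi library was above every ATlo library, and AThi O12 alone was above both young libraries. The 3 ATlo libraries all lay below both young libraries. The mean was 211 ± 161 in AThi and 22.2 ± 6.06 in ATlo (n = 3 each, SD), and 87.8 ± 56.6 in young (SD, n = 2), which orders the groups AThi, young, ATlo, with AThi and young overlapping. AThi O12 held 62.7% of the summed AThi level. Shroom2 is X-linked, and young D11, the library with the high Xist level, had the lower of the 2 young values. The part of this difference in the young level of Shroom2 was not tested.

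Limch1 carries a LIM and a calponin homology domain and is known from human cells as an activator of non-muscle myosin II. The gene lies on chromosome 5, positions 66745827 to 67057158, on the plus strand. The normalized counts were 329, 172 and 533 in AThi (225, 156 and 509 reads), 55.0, 31.8 and 44.3 in ATlo (70, 40 and 57 reads), and 4.16 and 0 in young (4 and 0 reads). The 3 groups did not overlap, in the order AThi, ATlo, young. The mean was 345 ± 181 in AThi and 43.7 ± 11.6 in ATlo (n = 3 each, SD), and 2.08 ± 2.94 in young (SD, n = 2). The 0 reads of young D12 allow a level of up to 3.17 normalized counts (3 reads). Limch1 had the lowest young mean of the 8 genes. The summed reads of AThi over those of the young libraries, scaled by depth, gave a log2 ratio of 7.38 (95% interval 6.02 to 9.26, counting error only).

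The promoter of Limch1 held 3 matches to the GC box, GGGCGG on either strand, marked in capitals below. The window runs from 250 bases before to 50 after the most upstream of 3 starts in RefSeq (GRCm38.p6).
Limch1 promoter, chr5:66745639-66745938, plus strand: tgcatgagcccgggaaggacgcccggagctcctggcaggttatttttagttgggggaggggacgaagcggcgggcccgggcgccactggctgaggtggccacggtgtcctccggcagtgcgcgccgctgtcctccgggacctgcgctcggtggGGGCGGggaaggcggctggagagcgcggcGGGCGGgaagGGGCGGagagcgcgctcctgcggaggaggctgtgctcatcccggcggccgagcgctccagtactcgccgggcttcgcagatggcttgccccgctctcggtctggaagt

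**Figure D1:**
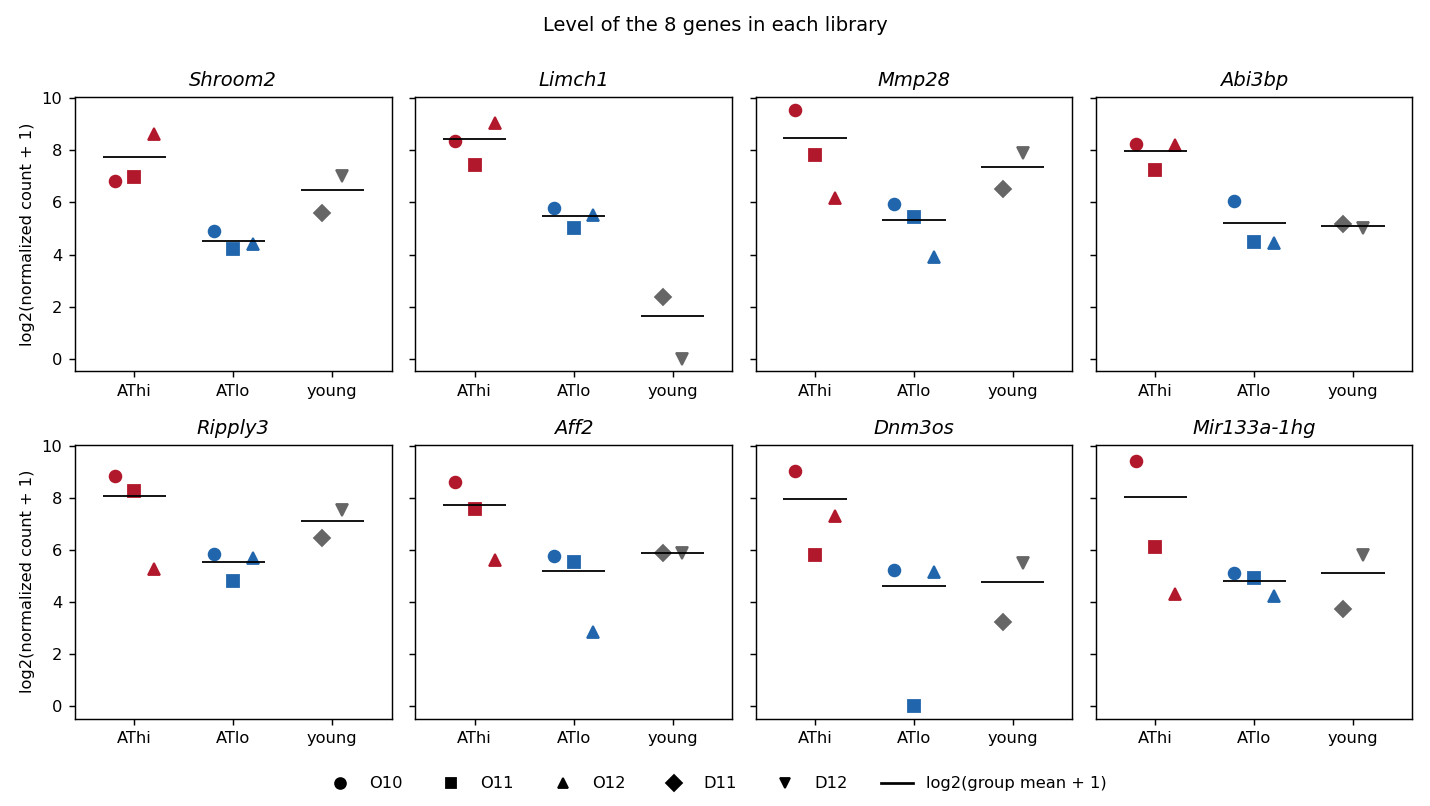
Level of each of the 8 genes as log2(normalized count + 1) in the 3 AThi, 3 ATlo and 2 young libraries. Symbols give the library tag and black bars the log2 of the group mean plus 1. Limch1 separates the 3 groups without overlap, while Mmp28, Ripply3, Aff2 and Mir133a-1hg have their lowest AThi value in library O12.

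Mmp28, or epilysin, is a secreted matrix metalloproteinase. Its locus is on chromosome 11, positions 83440768 to 83463071, on the minus strand. AThi libraries held 758, 226 and 71.1 normalized counts (518, 205 and 68 reads), ATlo libraries 59.7, 42.9 and 13.99 (76, 54 and 18 reads), and young libraries 90.4 and 241 (87 and 228 reads). AThi and ATlo did not overlap, but AThi O12 was below both young libraries and only AThi O10 was above them. The 3 ATlo libraries all lay below both young libraries. The mean was 352 ± 360 in AThi and 38.9 ± 23.1 in ATlo (n = 3 each, SD), and 166 ± 106 in young (SD, n = 2). In both old fractions O10 was the highest library and O12 the lowest, and the ratio of AThi to ATlo was 12.7 for O10, 5.27 for O11 and 5.08 for O12.

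Abi3bp encodes an extracellular matrix protein that binds the SH3 domain of Abi3. It lies on chromosome 16, positions 56477878 to 56690135, on the plus strand. The normalized counts were 302, 152 and 296 in AThi (206, 138 and 283 reads), 66.0, 21.4 and 20.99 in ATlo (84, 27 and 27 reads), and 35.3 and 31.7 in young (34 and 30 reads). Every AThi library was above every ATlo and young library, while ATlo and young overlapped. The mean was 250 ± 84.8 in AThi and 36.1 ± 25.9 in ATlo (n = 3 each, SD), and 33.5 ± 2.57 in young (SD, n = 2). Abi3bp had the smallest spread of the 8 genes among AThi libraries, a coefficient of variation of 34.0%.

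Ripply3 is a corepressor that tethers Groucho proteins to T-box transcription factors in mouse embryos. It lies on chromosome 16, positions 94328420 to 94336935, on the plus strand. The normalized counts were 464, 307 and 37.7 in AThi (317, 279 and 36 reads), 56.6, 27.0 and 51.3 in ATlo (72, 34 and 66 reads), and 86.2 and 187 in young (83 and 177 reads). AThi O10 and O11 were above all other libraries, whereas AThi O12 was below both young libraries and below 2 of the 3 ATlo libraries. The mean was 270 ± 216 in AThi and 45.0 ± 15.8 in ATlo (n = 3 each, SD), and 137 ± 71.2 in young (SD, n = 2). Ripply3 was the only member of the 8 whose AThi level was below the ATlo level of the same tag: for O12 the ratio of AThi to ATlo was 0.734.

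Aff2, also called Fmr2, is a nuclear protein of the AF4 family, whose relatives build the super elongation complex. It lies on chromosome X, positions 69360294 to 69868037, on the plus strand. The normalized counts were 392, 188 and 48.1 in AThi (268, 171 and 46 reads), 54.2, 46.0 and 6.22 in ATlo (69, 58 and 8 reads), and 58.2 and 58.1 in young (56 and 55 reads). AThi O12 overlapped with the ATlo libraries and was below both young libraries. The mean was 210 ± 173 in AThi and 35.5 ± 25.7 in ATlo (n = 3 each, SD), and 58.1 ± 0.066 in young (SD, n = 2). Within tags, AThi was 7.24 times ATlo for O10, 4.09 times for O11 and 7.74 times for O12. Aff2 is X-linked, and the 2 young libraries, which differ in Xist, held almost the same Aff2 level.

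Mmp28 and Aff2 were the most alike pair of members across libraries, so their promoters are shown together (RefSeq, GRCm38.p6, 250 bases before to 50 after the start). Capitals mark the GC box GGGCGG on either strand and, in Aff2, 1 match to the E-box CAGCTG.
Mmp28 promoter, chr11:83462991-83463290, minus strand: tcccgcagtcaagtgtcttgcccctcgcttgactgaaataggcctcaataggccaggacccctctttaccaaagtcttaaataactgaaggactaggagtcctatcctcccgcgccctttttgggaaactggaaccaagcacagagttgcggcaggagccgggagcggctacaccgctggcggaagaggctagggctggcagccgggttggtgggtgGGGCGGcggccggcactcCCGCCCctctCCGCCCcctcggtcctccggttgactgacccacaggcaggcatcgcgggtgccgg
Aff2 promoter, chrX:69360081-69360380, plus strand: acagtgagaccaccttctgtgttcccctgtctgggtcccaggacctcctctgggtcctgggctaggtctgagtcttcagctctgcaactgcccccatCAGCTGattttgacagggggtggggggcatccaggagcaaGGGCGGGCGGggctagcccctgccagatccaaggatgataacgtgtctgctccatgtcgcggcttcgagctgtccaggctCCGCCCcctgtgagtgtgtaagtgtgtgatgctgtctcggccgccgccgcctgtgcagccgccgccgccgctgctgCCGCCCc

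Of the 5 members whose RefSeq promoter was searched, 4 held a GC box: Shroom2 (1 match), Limch1 (3), Mmp28 (3) and Aff2 (4, of which 2 overlap). Of 32851 mouse promoters of the same length, 35.7% hold one. The CAGCTG E-box was in 1 of the 5, against 16.3% of all promoters. The palindromic E-box CACGTG, the forkhead core GTAAACA, the GATA core AGATAA, the AP-1 site TGANTCA, the cAMP response element TGACGTCA, the TATA box TATAAA and the CCAAT box were found in none of the 5 windows on either strand. The GC content was 71.3% for Shroom2, 72.7% for Limch1, 63.7% for Mmp28 and 65.3% for Aff2, against a median of 52.7% over all promoters. Dnm3os, with 48.7%, was below that median. Abi3bp, Ripply3 and Mir133a-1hg were not searched.

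Dnm3os is a long RNA transcribed from the strand opposite to Dnm3, and in mouse it is the precursor of miR-199a and miR-214 in mesenchyme. The locus is on chromosome 1, positions 162217623 to 162225550, on the plus strand, and none of its 7928 exon bases overlaps an exon of Dnm3. The 4 mature microRNAs within it are shown because they are the known products of the transcript. Seeds, bases 2 to 8, are in capitals (RefSeq, GRCm38.p6).
mmu-miR-199a-5p, chr1:162217844-162217866, plus strand: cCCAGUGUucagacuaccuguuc
mmu-miR-199a-3p, chr1:162217883-162217904, plus strand: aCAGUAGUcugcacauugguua
mmu-miR-214-5p, chr1:162223397-162223418, plus strand: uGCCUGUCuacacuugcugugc
mmu-miR-214-3p, chr1:162223438-162223459, plus strand: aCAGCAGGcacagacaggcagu
The 4 seeds all differ. Mature miR-199a-5p is also encoded by Mir199a-1, and miR-199a-3p by Mir199a-1 and Mir199b, so their sequence does not identify this locus. The microRNAs themselves were not analysed here.

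The Dnm3os transcript had 521, 55.1 and 158 normalized counts in AThi (356, 50 and 151 reads), 36.9, 0 and 34.2 in ATlo (47, 0 and 44 reads), and 8.31 and 44.4 in young (8 and 42 reads). Every AThi library was above every ATlo and young library, with AThi O11 the closest at 55.1. ATlo and young overlapped. The mean was 245 ± 245 in AThi and 23.7 ± 20.6 in ATlo (n = 3 each, SD), and 26.3 ± 25.5 in young (SD, n = 2). The 0 reads of ATlo O11 allow up to 2.38 normalized counts (3 reads), so Dnm3os was at least 23.1-fold higher in AThi than in ATlo for that tag, with the floor taken per library.

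The promoter of Dnm3os (RefSeq, GRCm38.p6, same window) is shown for contrast with the GC-rich ones. It held none of the 9 motifs searched and so has no capitals.
Dnm3os promoter, chr1:162217373-162217672, plus strand: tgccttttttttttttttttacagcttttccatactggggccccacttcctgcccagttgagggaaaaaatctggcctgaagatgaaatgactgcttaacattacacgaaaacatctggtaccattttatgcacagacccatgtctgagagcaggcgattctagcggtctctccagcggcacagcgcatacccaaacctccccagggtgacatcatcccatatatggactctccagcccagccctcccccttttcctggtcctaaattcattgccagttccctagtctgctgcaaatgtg

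Dnm3 itself, a dynamin of the plasma membrane and the gene on the opposite strand, had 2020, 1677 and 1601 normalized counts in AThi, 714, 705 and 575 in ATlo, and 87.3 and 54.9 in young libraries. The 3 groups did not overlap. Dnm3 rose in AThi against ATlo by a log2 fold change of 1.41 in the authors' deposited table (SE 0.21, adjusted p = 1.03e-08) and was also called by edgeR's quasi-likelihood test (adjusted p = 0.0173). It rose against young in both old fractions, and the authors' deposited table gave log2 fold changes of 4.63 in AThi (SE 0.27, adjusted p = 2.76e-63) and 3.22 in ATlo (SE 0.27, adjusted p = 1.13e-29). No source used here gives the strand setting of the counting, so reads of Dnm3os and of unspliced Dnm3 cannot be told apart. Dnm3os did not follow Dnm3 in all libraries: AThi O11 had more Dnm3 than AThi O12 (1677 and 1601) but less Dnm3os (55.1 and 158), and ATlo O11 had 705 for Dnm3 and 0 for Dnm3os.

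Mir133a-1hg is the host transcript of miR-133a and miR-1a, microRNAs known from skeletal and cardiac muscle. Its locus is on chromosome 18 on the minus strand, inside Mib1, a ubiquitin ligase gene of the plus strand. The annotations differ on its extent, positions 10781723 to 10785883 in GENCODE and 10778306 to 10791393 in RefSeq. The normalized counts were 691, 68.3 and 18.8 in AThi (472, 62 and 18 reads), 33.8, 29.4 and 17.9 in ATlo (43, 37 and 23 reads), and 12.5 and 54.9 in young (12 and 52 reads). AThi O10 alone stood far above all other libraries and held 88.8% of the summed AThi level, while AThi O12 lay within the range of ATlo. The mean was 259 ± 375 in AThi and 27.0 ± 8.21 in ATlo (n = 3 each, SD), and 33.7 ± 30.0 in young (SD, n = 2). Within tags, AThi was 20.4 times ATlo for O10, 2.32 times for O11 and 1.05 times for O12. Mib1 did not pass the test in AThi against ATlo (in the authors' deposited table, log2 fold change -0.06, SE 0.12, adjusted p = 0.857) and had 9451 normalized counts in AThi O10 and 9713 in ATlo O10. None of the 395 exon bases that GENCODE gives Mir133a-1hg overlaps an exon of Mib1. As for Dnm3os, the strand setting of the counting is not given, so reads of Mir133a-1hg and of unspliced Mib1 cannot be told apart.

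**Figure D2:**
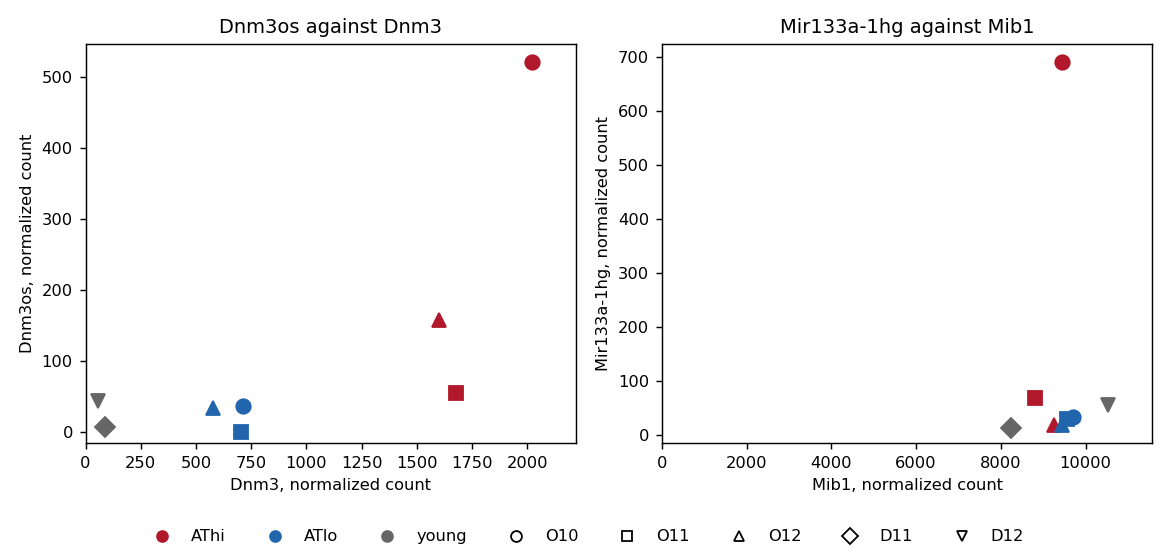
Normalized counts of Dnm3os against Dnm3 and of Mir133a-1hg against Mib1 in each library. Colours give the group and symbols the tag. The 3 AThi libraries have between 1601 and 2020 counts of Dnm3 but between 55.1 and 521 of Dnm3os, and AThi O10 is alone at the top of Mir133a-1hg at a Mib1 level close to that of the other libraries.

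Levels can be compared between genes per length of exon. In AThi, Ripply3 had the highest level, 176 ± 141 normalized counts per kilobase, followed by Mmp28 with 90.8 ± 93.0 (SD, n = 3 each). Limch1, Abi3bp, Dnm3os, Aff2 and Shroom2 lay between 25.2 and 33.7 normalized counts per kilobase, closer to each other than their spread. In ATlo, Ripply3 (29.4 ± 10.3) and Mmp28 (10.03 ± 5.97) also led on this scale, and in young HSCs they held 89.2 ± 46.5 and 42.7 ± 27.5 (SD, n = 2 each). Mir133a-1hg is left out of this order because the 2 annotations give it different lengths.

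In the authors' deposited table, the log2 fold changes of AThi against ATlo ranged from 2.56 (SE 0.84) for Aff2 to 3.37 (SE 1.13) for Dnm3os. Limch1 had the smallest standard error with 0.56 and a log2 fold change of 2.98, followed by Abi3bp with 2.79 (SE 0.59) and Shroom2 with 3.25 (SE 0.67) in the authors' deposited table. Mmp28 stood at 3.18 (SE 0.78), Ripply3 at 2.58 (SE 0.74) and Mir133a-1hg at 3.26 (SE 1.01) in the authors' deposited table. The whole range of the 8 values was narrower than the standard error of Aff2. All 8 were called, as the choice of members required, beside 3.47% of all tested genes called higher. All 3 AThi libraries were above all 3 ATlo libraries in 5 of the 8, beside 10.3% of all genes, and nothing is read from either count. The 5 were Shroom2, Limch1, Mmp28, Abi3bp and Dnm3os.

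Within tags, AThi was above ATlo for O10, O11 and O12 in 7 of the 8, all but Ripply3. The tag with the largest ratio differed between genes. It was O12 for Shroom2 (19.7), Limch1 (12.0), Abi3bp (14.1) and Aff2 (7.74), O10 for Mmp28 (12.7) and Mir133a-1hg (20.4), and O11 for Ripply3 (11.4) and Dnm3os (at least 23.1). With tags as a replicate block, DESeq2 on the recovered reads gave Mir133a-1hg a log2 fold change of 1.83 and no longer called it (adjusted p = 0.0873). This fit still called the other 7, beside 1951 of all 18365 genes tested. The quasi-likelihood test of edgeR called none of the 8 without the block, beside 1.41% of all genes called. All 8 had an unadjusted p below 0.05 in edgeR, as had 15.4% of all genes. With the block it called 2, Limch1 and Mmp28, beside 1.59% of all genes.

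**Figure D3:**
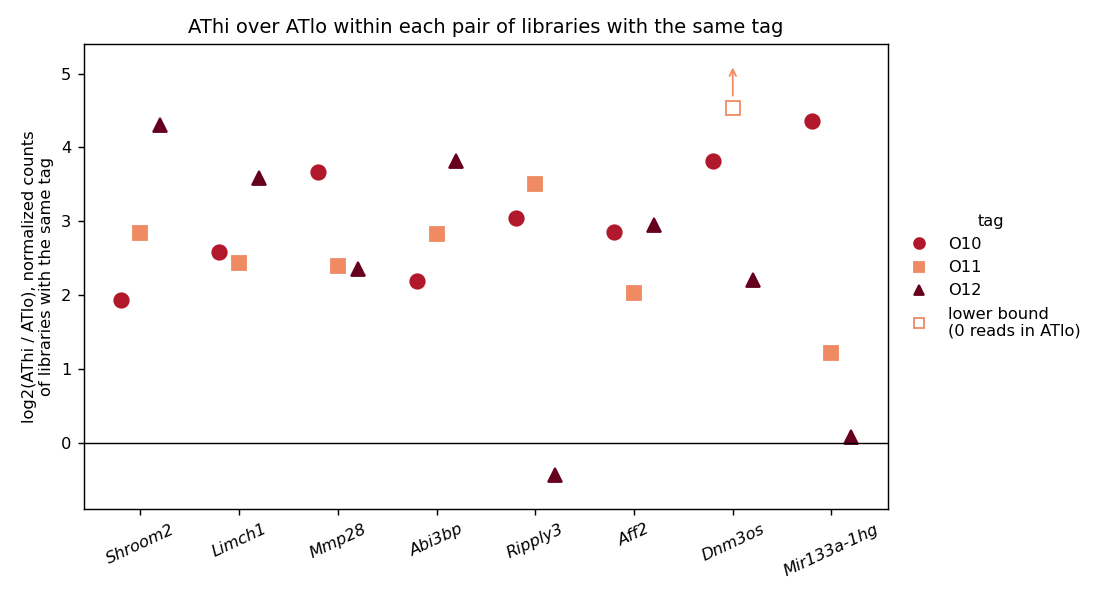
Log2 of the normalized count in AThi over that in ATlo for the libraries that share a tag. The open symbol is a lower bound, since ATlo O11 had 0 reads of Dnm3os. All points are above 0 but that of Ripply3 for O12, and that of Mir133a-1hg for O12 is close to 0 (a ratio of 1.05).

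Against young HSCs the 8 genes fell into different orders. AThi against young uses the AThi libraries whose high values chose the genes, which favours calls higher, so it is no independent test. In the authors' deposited table of AThi against young, Limch1 had a log2 fold change of 7.37 (SE 0.95). Abi3bp, with 2.90 (SE 0.67), Dnm3os, with 3.22 (SE 1.27), and Mir133a-1hg, with 2.94 (SE 1.13), stood between the extremes in the authors' deposited table. The authors' deposited table had its smallest values for Aff2 with 1.85 (SE 0.93), Shroom2 with 1.27 (SE 0.73), Mmp28 with 1.09 (SE 0.86) and Ripply3 with 0.98 (SE 0.83). The deposited test called 2 of the 8 higher, Limch1 and Abi3bp, beside 3.13% of all genes. Mir133a-1hg was called as well without AThi O12 and Dnm3os without ATlo O11. The quasi-likelihood test of edgeR called Limch1 (adjusted p = 0.0119) but not Abi3bp (adjusted p = 0.104), beside 1.21% of all genes called. In edgeR, 2 of the 8 had an unadjusted p below 0.05, as had 11.6% of all genes. All 3 AThi libraries were above both young libraries in 3 of the 8, Limch1, Abi3bp and Dnm3os, beside 13.7% of all genes.

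ATlo against young shares its libraries with the contrasts that chose the genes, so it is no independent test. In the authors' deposited table, Limch1 was higher in ATlo, with a log2 fold change of 4.39 (95% interval 2.52 to 6.26). The values for Shroom2 (-1.98, interval -3.44 to -0.52) and Mmp28 (-2.09, interval -3.79 to -0.39) in the authors' deposited table were below 0, and so was that of Ripply3 (-1.60, interval -3.23 to 0.03). Aff2 (-0.71, interval -2.55 to 1.13), Abi3bp (0.11, interval -1.22 to 1.44), Dnm3os (-0.15, interval -2.65 to 2.35) and Mir133a-1hg (-0.32, interval -2.55 to 1.91) had intervals on both sides of 0 in the authors' deposited table. Limch1 was the 1 member called, beside 2.37% of all genes called higher and 1.98% called lower. The quasi-likelihood test of edgeR called none of the 8 in this contrast, beside 0.653% of all genes. In edgeR, 2 of the 8 had an unadjusted p below 0.05, as had 12.1% of all genes. All 3 ATlo libraries were below both young libraries in 4 of the 8, Shroom2, Mmp28, Ripply3 and Aff2, beside 15.1% of all genes.

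**Figure D4:**
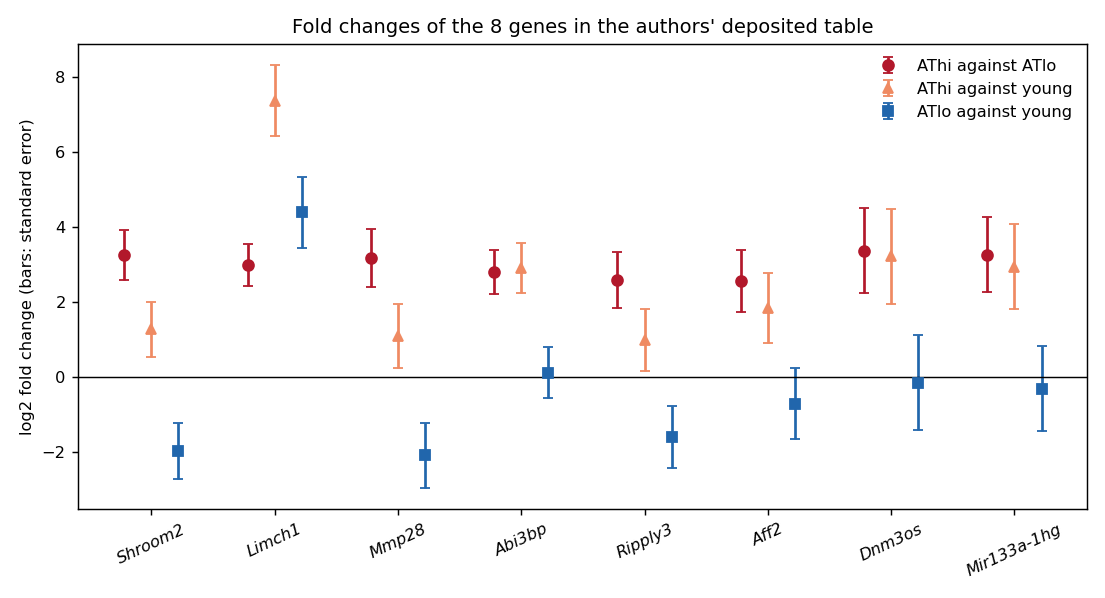
Log2 fold changes of the 8 genes in the 3 contrasts of the authors' deposited table, with standard errors as bars. AThi against ATlo runs from 2.56 to 3.37, while ATlo against young runs from -2.09 for Mmp28 to 4.39 for Limch1.

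The spread among AThi libraries was wide for most of the 8. The coefficient of variation in AThi ranged from 34.0% for Abi3bp to 144% for Mir133a-1hg, with a median of 81.3%, against a median of 28.7% over the 1661 other genes whose AThi mean lay within the range of the members' AThi means. The members were chosen by large rises in AThi, which can favour genes with a single very high AThi library. The other genes were not so chosen, so this gap is a description. Counting error alone would give a coefficient of variation between AThi libraries of 5.87% to 7.95%. In ATlo the median over the 8 was 47.3%, against 54.1% over the 1867 other genes in the range of the members' ATlo means. In young the median over the 8 was 64.3%, against 38.6% over the 7664 other genes in the range of the members' young means. The highest library was AThi O10 for 6 members and AThi O12 for Shroom2 and Limch1. AThi O10 was the least deeply read of the 8 libraries, and its raw reads were still the highest of all libraries for Mmp28, Ripply3, Aff2, Dnm3os and Mir133a-1hg.

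By the AThi libraries, 3 patterns could be seen, grouped here after the values were known and not tested. Shroom2, Limch1 and Abi3bp were above every ATlo library in all 3 AThi libraries and each had at least 111 normalized counts there. Mmp28, Ripply3, Aff2 and Mir133a-1hg had their lowest AThi value in O12, between 18.8 and 71.1, and there each was below its own level in young D12. Dnm3os had its lowest AThi value in O11.

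The fold changes depended on AThi O10. Without it, DESeq2 on the recovered reads gave log2 fold changes of AThi against ATlo of 0.69 for Mir133a-1hg, 1.74 for Aff2, 1.93 for Mmp28, 1.94 for Ripply3 and 2.17 for Dnm3os, and called Shroom2 (3.56), Limch1 (3.01) and Abi3bp (2.63), 3 of the 8, beside 5.49% of all genes. Other single libraries moved calls too. The calls of Ripply3 and Aff2 were lost without AThi O11, that of Dnm3os without AThi O12, those of Ripply3, Aff2 and Mir133a-1hg without ATlo O11, and those of Aff2, Dnm3os and Mir133a-1hg without ATlo O12. Shroom2, Limch1 and Abi3bp kept their call under each of the 8 left-out libraries. Without the 3 libraries tagged 12, an alternative chosen after seeing the data, the same test called Limch1, Mmp28, Ripply3, Aff2 and Mir133a-1hg, 5 of the 8, beside 4.51% of all genes. The values for those not called were 2.35 for Shroom2, 2.37 for Abi3bp and 3.97 for Dnm3os. All 8 fold changes of AThi against ATlo stayed above 0 in every alternative run, which the choice of the genes by this contrast favoured. The part of the immunoglobulin signal of the libraries tagged 12 in the low AThi O12 values of Mmp28, Ripply3, Aff2 and Mir133a-1hg was not tested.

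**Figure D5:**
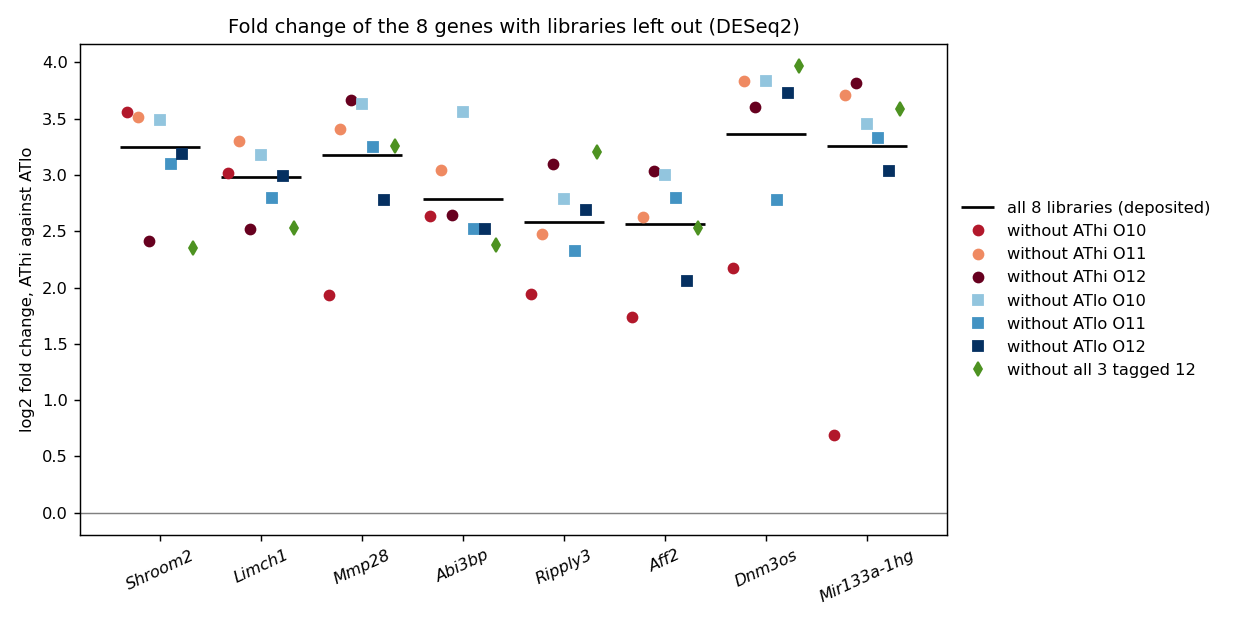
Log2 fold change of AThi against ATlo for each gene with all libraries (black bars) and with 1 old library or all 3 libraries tagged 12 left out (symbols). Leaving out AThi O10 takes Mir133a-1hg to 0.69 and Mmp28 to 1.93, while Shroom2, Limch1 and Abi3bp stay at 2.35 or above under each of these.

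Some of the 8 genes are best known from mesenchyme, endothelium or muscle, so the markers of these cells were summed. Of 18 stromal markers 7 were in the table, with 3175 to 6015 normalized counts in AThi, 3765 to 5342 in ATlo and 5197 to 5553 in young. Alpl, the alkaline phosphatase of bone-forming cells, was listed at 0 in all 3 AThi libraries. Of 16 endothelial markers 13 were in the table, with 10252 to 13809 in AThi, 9289 to 10879 in ATlo and 11617 to 17953 in young. Of 11 endothelial markers tested in AThi against ATlo, 2 were called higher and none lower, with a median log2 fold change of 0.10. Of all genes tested, 3.47% were called higher and 4.43% lower. The 2 were Kdr, the VEGF receptor of endothelium, and Cldn5, its tight junction protein. The authors' deposited table gave Kdr a log2 fold change of 1.61 (SE 0.36, adjusted p = 0.000408) and Cldn5 one of 1.76 (SE 0.34, adjusted p = 2.47e-05). Cldn5 was also called by edgeR (adjusted p = 0.0463), and Kdr was not (adjusted p = 0.0617, and 0.109 with the replicate block). Of 19 muscle markers 5 were in the table, with 736 to 1279 in AThi, 286 to 744 in ATlo and 690 to 855 in young, and none of the 4 tested was called. In AThi O10, which led 6 of the 8 genes, the muscle sum of 1279 and the stromal sum of 6015 were the highest of the 8 libraries. Of that stromal sum, Col1a1, Col1a2 and Pdgfrb held 62.9, 323 and 473, and the rest came from Kitl, Runx2 and Thy1. Cxcl12, Lepr, Pdgfra, Col3a1 and Dcn were among the stromal markers not in the table. The part of stromal, endothelial and muscle cells in the levels of the 8 genes was not tested.

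Most genes around the members did not pass the test. Of the 34 neighbouring or overlapping genes tested, 3 were called in AThi against ATlo, beside 7.9% of all genes, and their median log2 fold change was -0.02. Besides Dnm3, Impg2, a proteoglycan of the retinal matrix upstream of Abi3bp, was called higher in the authors' deposited table with a log2 fold change of 4.26 (SE 1.33, adjusted p = 0.0228), at 2.93, 15.4 and 56.5 normalized counts in AThi against 0, 0.794 and 3.11 in ATlo. Impg2 was not called by edgeR (adjusted p = 0.16) and kept its call in 4 of 8 fits with 1 library left out. Snrpd1, a core protein of the spliceosome before Mir133a-1hg, was called lower both in the authors' deposited table, with a log2 fold change of -1.15 (SE 0.22, adjusted p = 1.35e-05), and in edgeR (adjusted p = 0.0328). Fmr1, a neighbour of Aff2 that encodes an RNA-binding protein of neurons, had a log2 fold change of -0.22 in the authors' deposited table (SE 0.13, adjusted p = 0.375). Near Limch1, which was almost absent in young HSCs, Apbb2 was called higher in both old fractions against young. The authors' deposited table gave log2 fold changes of 1.65 in AThi (SE 0.36, adjusted p = 0.000379) and 1.20 in ATlo (SE 0.36, adjusted p = 0.0285). Apbb2 was called by edgeR in neither (adjusted p = 0.119 in AThi and 0.278 in ATlo), and with 1 library left out its calls held in 7 and 5 of 8 fits. Apbb2 was not alone in this. In the authors' deposited table of AThi against young, Uchl1, closer to Limch1, had 1.93 (SE 0.56, adjusted p = 0.015). Gm10176 near Dnm3os had 5.81 (SE 1.60, adjusted p = 0.00887). Neither was called in ATlo against young. Of all genes, 3.13% were called higher in AThi against young and 2.37% in ATlo against young.

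Partners of the 8 genes by role were examined as lists, beside a median log2 fold change of 0.02 over all genes tested in AThi against ATlo, of which 3.47% were called higher and 4.43% lower. Among genes of the SHROOM family and actomyosin, 2 of 28 were called higher and 1 lower, with a median of -0.07. Shroom3 rose by 1.14 (SE 0.39, adjusted p = 0.0478) and Rock2, a kinase that acts on myosin, by 0.46 (SE 0.11, adjusted p = 0.00148), while Cfl1, the actin-severing cofilin, fell by 0.40 (SE 0.10, adjusted p = 0.00209), all on the log2 scale of the authors' deposited table. With 1 library left out, Shroom3 was called in 4 of 8 fits and Rock2 and Cfl1 in all 8. With tags as a replicate block, DESeq2 called 5 genes of this list, beside 1951 of all 18365 genes tested. Against young, 3 of 28 were called higher and 1 lower in AThi, beside 3.13% and 1.91% of all genes, and edgeR called 1 higher, beside 1.21% of all genes. In ATlo against young, 5 were called higher and none lower, beside 2.37% and 1.98%, and edgeR called none, with 9 at an unadjusted p below 0.05.

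Among matrix metalloproteinases and their inhibitors, 2 of 10 were called higher and none lower in AThi against ATlo, with a median of 0.38. In the authors' deposited table Mmp16, a membrane-bound member, had a log2 fold change of 1.52 (SE 0.45, adjusted p = 0.0143) and Timp3, a matrix-bound inhibitor, one of 0.56 (SE 0.19, adjusted p = 0.0467). Mmp16 had 206, 102 and 355 normalized counts in AThi, 77.0, 81.0 and 73.1 in ATlo, and 503 and 510 in young, so unlike Mmp28 its highest values were those of young HSCs. With tags as a replicate block, DESeq2 no longer called Mmp16 (adjusted p = 0.109), which left 1 gene of the list called. Among other matrix genes, 1 of 26 was called higher and 4 lower, with a median of -0.21. In the authors' deposited table Thbs1, the adhesive thrombospondin, rose by 3.46 (SE 0.75, adjusted p = 0.000206), and Sparc (-4.03, SE 1.24, adjusted p = 0.02), Fbln1 (-3.86, SE 1.19, adjusted p = 0.0203) and Fn1 (-1.04, SE 0.32, adjusted p = 0.021), the genes of osteonectin, fibulin and fibronectin, fell. Thbs1 had 299, 51.8 and 64.9 normalized counts in AThi, 4.71, 15.9 and 17.1 in ATlo, and 409 and 252 in young. As for Mmp16, its highest value was that of a young library. With 1 library left out, Thbs1 was called in 8 of 8 fits, Mmp16 in 6, Fn1 in 5, Fbln1 in 4, and Timp3 and Sparc in 3. With the replicate block, DESeq2 called 8 matrix genes, beside 1951 of all 18365 genes tested.

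Among RIPPLY, T-box and Groucho genes, 1 of 9 was called higher in AThi against ATlo and none lower, with a median of 0.15. It was Tle4, a Groucho corepressor, for which the authors' deposited table gave a log2 fold change of 0.60 (SE 0.17, adjusted p = 0.0117). Among the AFF family and elongation complex partners of Aff2, 5 of 21 were called higher and 2 lower, with a median of 0.07. In the authors' deposited table Mllt3 rose by 0.66 (SE 0.15, adjusted p = 0.000402), Ell2 by 0.72 (SE 0.18, adjusted p = 0.00235) and Aff4 by 0.49 (SE 0.12, adjusted p = 0.00298), and Dot1l, the histone H3 methyltransferase that binds this complex, had -0.80 (SE 0.19, adjusted p = 0.00138). Among other long RNAs that carry microRNAs, 2 of 8 were called higher and none lower, with a median of 1.13. These were Mir99ahg and Ftx: the authors' deposited table gave Mir99ahg 1.28 (SE 0.28, adjusted p = 0.000322) and Ftx 1.20 (SE 0.31, adjusted p = 0.00301). Against young, that table gave AThi values of -0.13 for Tle4, 0.05 for Ell2, -0.16 for Mir99ahg and 0.01 for Ftx, none called. It called all of these lower in ATlo against young (-0.73, -0.67, -1.44 and -1.19), and edgeR called none of them. Mllt3 (0.38 in AThi and -0.28 in ATlo), Aff4 (0.11 and -0.37) and Dot1l (-0.34 and 0.46) were not called against young. Among 10 factors known to act on the Dnm3os and Mir133a-1hg loci, none was called and none had an unadjusted p below 0.05 in either the deposited DESeq2 test or edgeR. With 1 library left out, Mllt3, Ell2, Dot1l and Mir99ahg were called in 8 of 8 fits, Aff4 and Ftx in 7 and Tle4 in 5. Without the replicate block edgeR called no gene of these 7 lists in AThi against ATlo, with between 0 and 10 genes a list at an unadjusted p below 0.05. With the block it called 3, Mllt3 (adjusted p = 0.0266), Mir99ahg (adjusted p = 0.0331) and Rock2 (adjusted p = 0.0344).

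Across the 8 libraries, the log2(normalized count + 1) values of the 28 pairs of members had a median Pearson correlation of 0.58, from 0.03 for Limch1 with Ripply3 to 0.92 for Mmp28 with Aff2. These are descriptions over 8 libraries that share depth, groups and tags, and the members were chosen for a common difference. Mmp28 was also the most alike member for Ripply3 (0.87) and Mir133a-1hg (0.82), and Abi3bp was for Shroom2 (0.77), Limch1 (0.75) and Dnm3os (0.78). Many other genes were more alike than these members. Among 11799 genes compared, the nearest member ranked 18 for Mmp28, 20 for Aff2, 50 for Ripply3 and 135 for Mir133a-1hg. It ranked 212 for Shroom2, 244 for Dnm3os, 330 for Abi3bp and 535 for Limch1. Within the 6 old libraries, Shroom2 and Limch1 correlated at 0.97 and Limch1 and Abi3bp at 0.96. Limch1 followed Dnm3 (0.97 over 8 libraries), the gene opposite Dnm3os, more than Dnm3os did (0.38).

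Genes whose base mean reached 50 were compared with the mean of the 8 members. Members and predicted, clone, mitochondrial and pseudogene names were left out. The 10 most alike were Samd12, Man1a, Nr3c2, Foxred2, Slc66a2, Asph, St3gal6, Exoc6b, Use1 and Gstm1, with correlations of 0.97 to 0.94 over 8 libraries. Their fold changes were much smaller than those of the members. For AThi against ATlo the authors' deposited table gave Nr3c2, the mineralocorticoid receptor, the largest of their log2 fold changes, 1.21 (SE 0.39, adjusted p = 0.0267), and Man1a, a mannosidase of the Golgi, the smallest, 0.30 (SE 0.11, adjusted p = 0.0487). With 1 library left out, Nr3c2 was called in 4 of 8 fits and Man1a in 1. The single most alike gene was Arid1a for Shroom2, Zfp503 for Limch1, Pdp2 for Mmp28, Junb for Abi3bp, Dlg2 for Ripply3, Fam107b for Aff2, Zfyve9 for Dnm3os and Npas2 for Mir133a-1hg, at correlations of 0.970 to 0.995 over the 8 libraries. Each member was compared with 11799 genes under the same base mean and name rules, with the other members kept. The value given is the highest of these many correlations over 8 libraries, and nothing is read from its height.

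The authors' deposited table of 726 upstream regulators for AThi against ATlo named Limch1 among the targets of 7 regulators, Mmp28 of 6 and Ripply3 of 2, and the other 5 genes of none. It lists a regulator mir-133 with an activation z-score of 2 and an overlap p of 0.0525 in the authors' deposited table. That name gives no locus, so the entry was not tied to Mir133a-1hg, which carries miR-133a.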

How the data were processed

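RNA came from about 10000 HSCs per sample with an integrity number over 9.0, taken on 2 sort days, and a low-input kit turned all samples into libraries together, sequenced from both ends (50 bases each, aiming at 40 M reads), per the labels' protocols. No source used here assigns libraries to sort days. The submitters' processing notes name FastQC, MultiQC, STAR, featureCounts and DESeq2, and the build GRCm38, but no versions, annotation or strand setting. The authors' deposited tables hold, for 3 contrasts, log2 fold changes, p-values, Wald scores and a normalized signal. The deposited signal is reads over a library's size factor: whole reads were recovered for 100% of values (within 0.01 of a read). The authors' deposited regulator table gives activation scores and overlap p-values. Columns were matched to groups only.

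The members, lists and rule for named genes (the 8 members, their neighbours, up to 4 called genes of each list by adjusted p, and the genes most like them) were chosen with earlier results of these data known. The main test was DESeq2's as the authors deposited it, adjusted by Benjamini-Hochberg over all genes and called below 0.05. The refits of the recovered reads used DESeq2 1.42.0 and edgeR 4.0.16 under R 4.3.3, both checked on simulated data, with other size factors, filters, a block for the tag, and each library left out. Likeness used log2(normalized count + 1). Python 3.11.15 served for the rest. Positions are from GENCODE annotation of GRCm38.

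The labels describe AThi and ATlo samples as paired. Deviations from group means over 13611 genes correlated by 0.209, 0.164 and 0.373 for libraries of the same tag, and by -0.232 to 0.0301 for other pairs, so tags were taken as pairs. Replicates are separate mice per the labels. Without molecular identifiers reads are not independent molecules, so intervals and floors of 3 reads hold for counting error alone.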

Additional observations from a re-analysis of the deposited data

How the results depend on the processing

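The deposited DESeq2 test was narrowed most by edgeR. In AThi against ATlo it called 1414 genes and all 8 members, and edgeR called 280 genes with its own factors, 286 with those of DESeq2 and 280 without a filter, with 0 members each time. In AThi against young it called 961 genes and 2 members, and edgeR 240, 239 and 240 genes with 1 member. In ATlo against young it called 811 genes and 1 member, and edgeR 130 genes with 0 members under each of these settings. With the replicate block, edgeR called 311 genes and 2 members in AThi against ATlo and DESeq2 called 1951 genes and 7 members. Leaving out 1 library at a time gave 932 (without ATlo O11) to 1422 genes and 3 (without AThi O10) to 8 members in AThi against ATlo, 585 (without young D12) to 1093 genes and 2 to 3 members in AThi against young, and 362 (without young D11) to 894 genes and 1 member in ATlo against young. Without the 3 libraries tagged 12, DESeq2 called 793 genes and 5 members, 582 genes and 2 members, and 482 genes and 0 members in the 3 contrasts in that order, and edgeR called 0, 41 and 19 genes and 0 members, with 2224 genes at an unadjusted p below 0.05 in AThi against ATlo.

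No member changed direction in AThi against ATlo, the contrast that chose the members for their rise. With 1 library left out at a time, Mmp28 in AThi against young ran from -0.16 (without AThi O10) to 1.96. In ATlo against young, Abi3bp ran from -0.66 (without ATlo O10) to 0.39, Dnm3os from -0.90 to 1.52 (without young D12), with 0.44 without ATlo O11, and Mir133a-1hg from -1.02 to 1.12 (without young D12). Without the libraries tagged 12, in ATlo against young, Dnm3os was at 1.15 in both tools and Mir133a-1hg at 1.35 in DESeq2 and 1.34 in edgeR. The cause of these changes was not tested. Other normalizations and low-count filters within DESeq2 moved no member across the threshold. The call of Limch1 in ATlo against young was lost in edgeR (adjusted p = 0.107). Among other named genes no called direction reversed. The median correlation between members was 0.61 with a pseudocount of 8, 0.58 without a minimum and 0.68 within the 6 old libraries, where none (0) of the 10 most alike genes was shared with the list from 8 libraries. Counting limits single values at low levels, where members had as few as 0 reads in an ATlo and a young library. The coefficient of variation between libraries was above that from counting for each member in each group except Abi3bp (7.68%, against 17.7% from counting) and Aff2 (0.114%, against 13.4%) in young.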
